A study of Mus musculus with 9 samples.

Results

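The lysosome depends on soluble acid hydrolases, on glycosylated proteins of its membrane and on the V-ATPase that acidifies its lumen, and 35 genes for these parts and their regulators were followed here in mouse macrophages. They were taken by symbol from a table of gene counts with 20627 features, and comprised 2 transcriptional regulators, 4 membrane proteins, 12 hydrolases, 2 cofactors of hydrolases, 5 subunits of the membrane sector (V0) and 8 of the cytosolic sector (V1) of the V-ATPase, and 2 accessory proteins of that pump. They form a functional group listed by name, and the rule sets no threshold on any measured value. The list was drawn up with earlier results of these data known. All 35 passed the filter on low counts and were among the 13311 genes tested.

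RNA of RAW264.7 cells, an established macrophage-like line from mice, was sequenced after poly(A) selection in 9 libraries, 3 per group. HG-SIG cells received 35 mmol/l glucose together with sitagliptin phosphate for 6 h; sitagliptin blocks dipeptidyl peptidase 4 and is prescribed in type 2 diabetes. HG cells received the same glucose for the same time without the drug. NC cells served as the control, with no glucose concentration or time stated for them, and no group held an osmotic control or the drug without added glucose. The labels give the same batch for all libraries and do not state whether replicates came from different cultures. The p-values therefore reflect the variation among these 9 libraries alone, part or all of which could be technical.

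In a macrophage, material taken up by phagocytosis or autophagy ends in lysosomes, where hydrolases with acidic pH optima break down proteins, lipids and glycans. The V-ATPase couples ATP hydrolysis in V1 to proton transport through V0, and V1 can leave V0 reversibly. TFEB and TFE3 are basic helix-loop-helix factors that move to the nucleus when mTORC1 is inactive and bind E-box sites. The CLEAR element found upstream of many lysosomal genes contains the E-box core CACGTG. The core alone is shorter than that element.

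Because the factors that regulate many of these genes bind CACGTG, the promoter windows were searched for it. RefSeq promoters (GRCm38.p6), 250 bases before to 50 after the annotated start, were found for 30 of the 35 genes. The core CACGTG, which reads the same on both strands, was present in the windows of 10 of the 30 (33.3%), compared with 8.09% of all 27025 genes with a promoter and 11.9% of the 9428 tested genes with one. The longer palindrome TCACGTGA, which contains the core, was present in 5 of the 30 (16.7%), compared with 2.22% of the tested genes. The full CLEAR palindrome was in none of the 30 windows, and in 0.838% of those of the tested genes. These matches describe letters in a window and not binding. The stretches below are written 5′ to 3′ along each gene's strand. They end at the first base before the gene as GENCODE M21 annotates it. Capitals mark CACGTG, or TCACGTGA where it is complete. The stretches carry the core in 1 to 4 copies and were picked partly for how their genes behaved among the groups. Gaa, whose stretch also held 1 copy, is not shown. Lamp1 (chr8:13158911-13159160, + strand) had 4 copies, Gla (chrX:134601126-134601255, - strand) and Atp6v0b (chr4:117887334-117887579, - strand) had 2 each, and Mcoln1 (chr8:3500269-3500456, + strand) and Glb1 (chr9:114400828-114401075, + strand) had 1 each in these stretches. The whole window of Mcoln1 held 2 copies, 1 of them within TCACGTGA. That copy lies in the 62 bases cut off at the GENCODE start and is not shown.
Lamp1: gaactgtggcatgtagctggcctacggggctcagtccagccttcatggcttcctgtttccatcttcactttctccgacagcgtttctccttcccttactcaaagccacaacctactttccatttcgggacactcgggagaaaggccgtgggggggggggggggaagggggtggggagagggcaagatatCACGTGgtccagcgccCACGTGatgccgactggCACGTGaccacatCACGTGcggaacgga
Gla: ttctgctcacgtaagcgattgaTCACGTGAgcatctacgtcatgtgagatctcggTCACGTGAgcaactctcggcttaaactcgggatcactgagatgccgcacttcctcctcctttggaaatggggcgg
Atp6v0b: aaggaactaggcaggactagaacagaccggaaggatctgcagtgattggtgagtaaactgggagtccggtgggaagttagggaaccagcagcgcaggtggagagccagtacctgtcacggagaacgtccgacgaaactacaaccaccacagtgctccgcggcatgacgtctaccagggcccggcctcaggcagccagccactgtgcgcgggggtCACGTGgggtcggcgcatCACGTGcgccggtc
Mcoln1: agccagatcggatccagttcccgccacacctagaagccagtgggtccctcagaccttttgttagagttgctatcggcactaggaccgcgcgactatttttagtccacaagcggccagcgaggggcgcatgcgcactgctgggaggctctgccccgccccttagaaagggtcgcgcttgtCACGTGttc
Glb1: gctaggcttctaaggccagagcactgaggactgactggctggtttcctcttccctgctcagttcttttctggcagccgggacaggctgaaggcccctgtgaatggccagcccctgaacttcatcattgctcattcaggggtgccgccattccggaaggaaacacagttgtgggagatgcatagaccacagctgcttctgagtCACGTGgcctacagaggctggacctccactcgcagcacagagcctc

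Library totals lay between 23285821 and 31571578 counts, and the lowest count of any of the 35 genes in a library was 375 (Tfeb). Levels are TMM-scaled CPM, the share of each gene in its library scaled to a common total, where TMM sets libraries to a common scale by assuming that most genes do not change. Levels of different genes are compared only as TPM, which also divides by the joined length of all annotated exons of a gene. Ranks, shares and ratios between genes therefore depend on that annotation. Genes were called at an adjusted p under 0.05 in edgeR's quasi-likelihood test, adjusted over all genes tested. Scaling mattered for the drug comparison. By library size alone, the median log2 fold change of all genes between HG-SIG and HG moved up by 0.16, and 10 of the 35 genes changed sign. The number of fits compared was 5. TMM, library size alone and RLE size factors were run in edgeR. DESeq2 also changes the test. The fit with limma on log2(TPM + 1) changes the test, the set of genes tested and the unit. The account gives most room to the genes that were called in the same direction in all 5 fits. The macrophage identity of the line was visible in 7 of 7 macrophage markers, whose summed level, mostly Lyz2, was 4942 to 5031 CPM in HG-SIG, 9286 to 9970 CPM in HG and 9506 to 9989 CPM in NC. Markers of T and B cells, epithelium and fibroblasts summed to at most 0.201 CPM per library, and none of them was abundant enough to be tested. The part of the marker shift in the results below was not tested. In bulk RNA, fewer cells of a kind and less RNA per cell cannot be told apart.

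Between HG-SIG and HG, 22 of the 35 passed the test, 5 higher and 17 lower; among all genes tested 52.5% were called, 25.7% higher and 26.8% lower. Called higher were the lipid hydrolase gene Smpd1, the glycan hydrolase genes Man2b1 and Neu1 and the V-ATPase genes Atp6v0a1 and Atp6v1d. Called lower in all 5 fits were Tfeb, the tetraspanin gene Cd63, progranulin (Grn) and 3 genes of V1, Atp6v1a, Atp6v1b2 and Atp6v1g1. The 3 replicates of HG-SIG and HG did not overlap in 25 of the 35 genes, compared with 58.7% of all genes. The median log2 fold change was -0.11 over the 35 genes and 0.01 over all genes. With library size alone, the members called were 13 higher and 8 lower, compared with 45.8% and 13.7% of all genes. With limma on log2(TPM + 1), the route named in the series' design text, 18 were called higher and 6 lower, compared with 54.7% and 12.1% of the 12109 genes tested there. The 8 genes called higher with library size alone and not with TMM were Tfe3, Mcoln1, Glb1, Gaa, Asah1, Atp6v0d1, Atp6v1e1 and Atp6v1h.

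The changes were small. None of the 35 was both called and more than 1 log2 unit apart, the size the series took as its criterion, compared with 5.3% of all genes between HG-SIG and HG, 2.85% between HG and NC and 8.51% between HG-SIG and NC. At 0.3 or more, 10 of the 35 (28.6%) were called between HG-SIG and HG, near the 29% of all genes, 2 of the 35 (5.71%) between HG and NC, compared with 13.9% of all genes, and 14 of the 35 (40%) between HG-SIG and NC, compared with 35.6%.

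In HG relative to NC, 12 of the 35 were called (4 higher, 8 lower), compared with 29.5% of all genes, 14.3% higher and 15.2% lower. Higher were Tfeb, Man2b1, Glb1 and Psap. The largest differences among the 8 lower ones were those of the V-ATPase genes Atp6v1e1, Atp6v0a1 and Atp6v0c. The libraries did not overlap in 16 of the 35, compared with 41.7% of all genes. Without HG replicate 1, or without NC replicate 1, 5 genes were called lower in place of 8. Of all genes, 1749 and 1657 were then called lower, in place of 2028. Between HG-SIG and NC, 29 of the 35 were called, 8 higher and 21 lower, compared with 58.6% of all genes, 29.9% higher and 28.7% lower, and the libraries did not overlap in 30 of the 35, compared with 65.9% of all genes. These comparisons share libraries: HG enters both of the first 2, so a high or low HG value moves them in opposite directions.

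**Figure D1:**
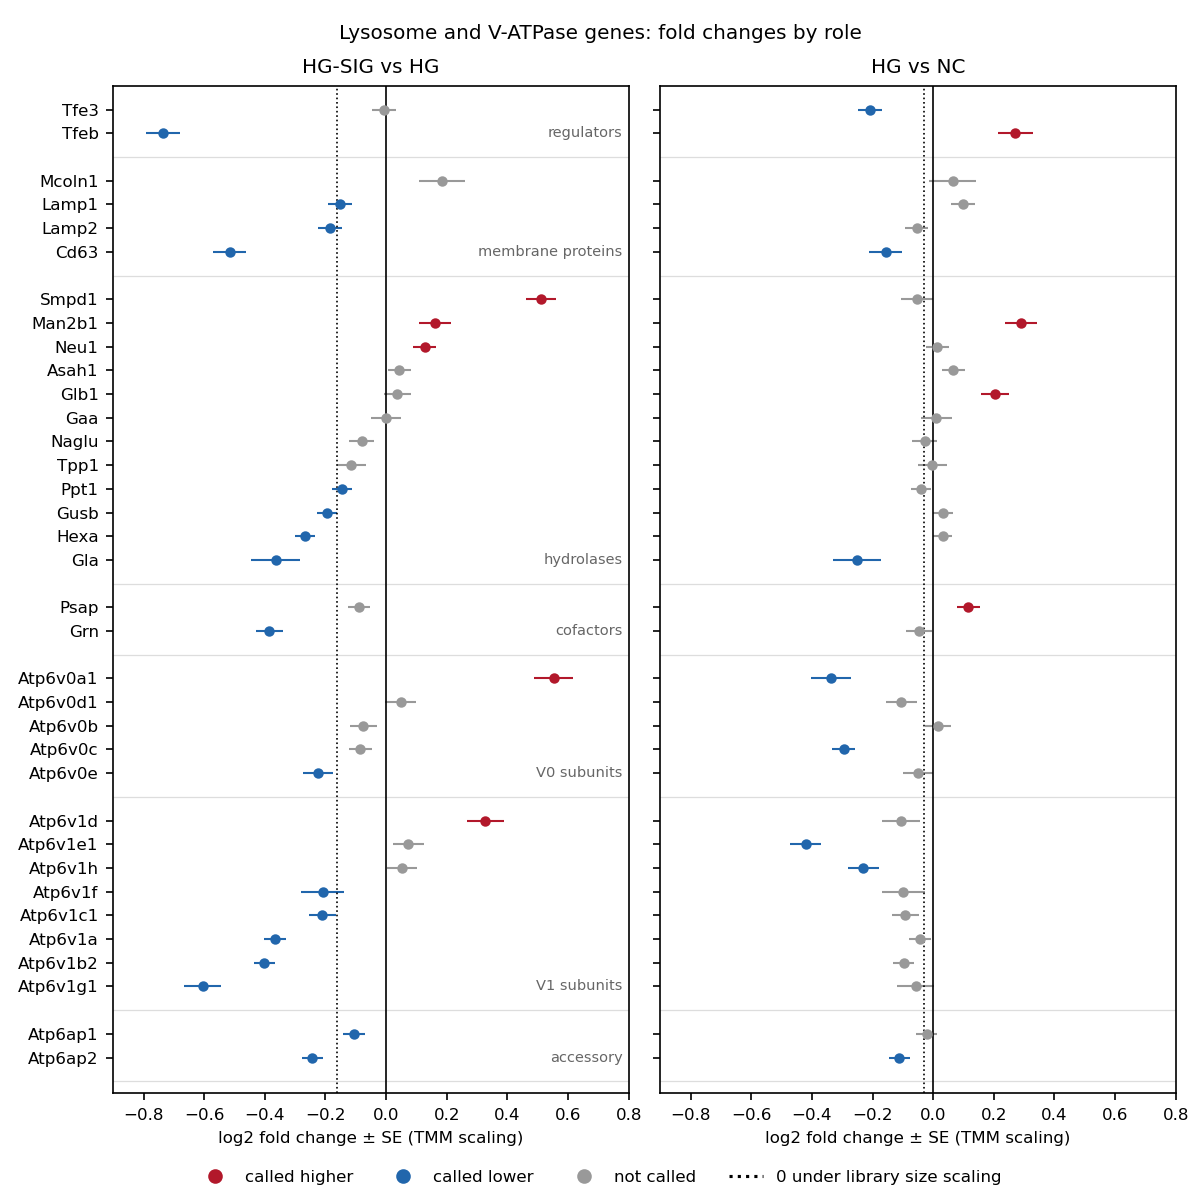
Log2 fold change (x axis, TMM scaling) of each of the 35 genes (y axis, grouped by role) between HG-SIG and HG (left) and between HG and NC (right). Points are the fitted values of 3 libraries per group with bars of 1 SE, colours give the calls, and the dotted line is where 0 would lie with scaling by library size alone, 0.16 below on the left. Tfeb is the lowest point on the left (-0.74) and lies on the positive side on the right (0.27).

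Tfeb (ENSMUSG00000023990, chr17:47737030-47792419, GRCm38), which encodes the main transcriptional regulator of lysosome biogenesis, had 11.8, 12.2 and 12.1 CPM in HG-SIG, compared with 21.03, 19.9 and 19.2 CPM in HG and 16.6, 16.6 and 16.6 CPM in NC. The 3 groups were fully separate, with HG highest and HG-SIG lowest. The log2 fold change was -0.74 ± 0.06 (SE, adjusted p = 4.32e-07) between HG-SIG and HG, the largest absolute change of the 35 genes in that comparison, and 0.27 ± 0.06 (adjusted p = 0.00278) between HG and NC. Between HG-SIG and NC it was -0.46 ± 0.06 (adjusted p = 1.85e-05). Tfe3 (ENSMUSG00000000134, chrX:7762560-7775202), its close relative, had 103, 99.9 and 104 CPM in HG-SIG, 99.9, 106 and 103 CPM in HG and 115, 123 and 119 CPM in NC. The HG-SIG and HG libraries overlapped (-0.01 ± 0.04, adjusted p = 0.897; 0.15 with library size alone), and this gene was lower in HG than in NC (-0.21 ± 0.04, adjusted p = 0.00133).

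Within a library the ratio of Tfe3 to Tfeb in TPM needs no scaling between libraries. It was 5.35, 5.02 and 5.26 in HG-SIG, compared with 2.91, 3.27 and 3.28 in HG and 4.24, 4.52 and 4.40 in NC. The ratio thus separated all 3 groups, and it was chosen after the values were seen. Their relative Mitf, a factor of the same family with roles in pigment cells and osteoclasts, had 39.5, 40.5 and 39.2 CPM in HG-SIG, 124, 126 and 118 CPM in HG and 168, 159.8 and 175 CPM in NC. It fell by 1.63 on the log2 scale between HG-SIG and HG (adjusted p = 3.73e-11) and by 0.45 between HG and NC (adjusted p = 3.69e-06). As a share of the summed TPM of Tfeb, Tfe3, Mitf and Tfec, Mitf took 31.8% ± 0.685 in HG-SIG, 56.8% ± 0.731 in HG and 62.1% ± 1.50 in NC (SD, n = 3). Tfe3 took 54.9% ± 0.895 in HG-SIG, 31.8% ± 0.852 in HG and 29.5% ± 1.35 in NC. Tfeb kept a similar share in HG-SIG (10.5% ± 0.191) and HG (10.1% ± 0.458), above 6.73% ± 0.169 in NC.

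**Figure D2:**
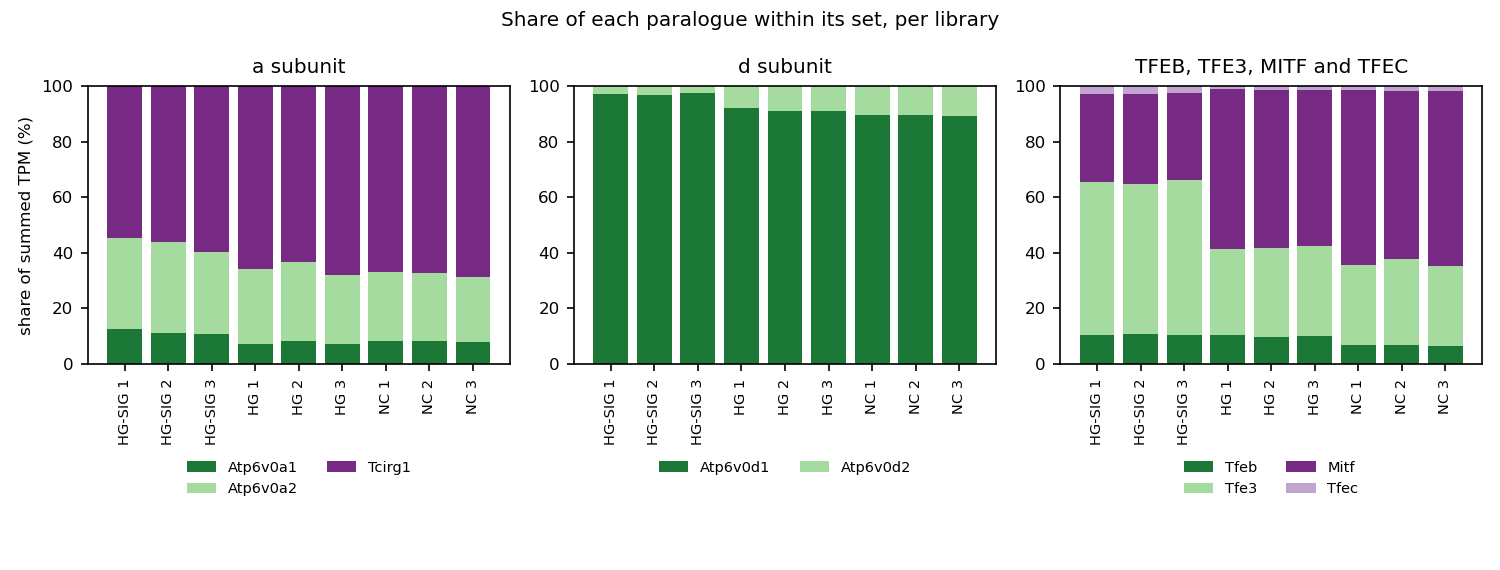
Share of each paralogue in the summed TPM of its set (y axis, %) in each of the 9 libraries (x axis), for the V-ATPase a subunit, the d subunit and the TFEB family. The Mitf share is at most 32.6% in HG-SIG and at least 56.0% in HG, and the Atp6v0d2 share is at most 3.18% in HG-SIG, compared with at least 7.83% in HG.

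Among 17 tested genes of the TFEB family and of nutrient signalling at the lysosome, 3 were called higher and 5 lower between HG-SIG and HG (10 higher and 3 lower with library size alone), and 1 higher and 5 lower between HG and NC. For these and the lists of related genes that follow, the shares over all genes between HG-SIG and HG were 25.7% higher and 26.8% lower with TMM and 45.8% and 13.7% with library size alone, and those between HG and NC were 14.3% and 15.2%. After Mitf the lowest p-values between HG-SIG and HG were those of Fnip2, part of the folliculin complex, which had 69.9 ± 1.90 CPM in HG-SIG and 88.0 ± 2.07 CPM in HG (-0.33 ± 0.04, adjusted p = 9.49e-06), and of Lamtor1, the membrane anchor of the Ragulator complex, with 73.9 ± 4.13 CPM in HG-SIG and 94.6 ± 4.20 CPM in HG (-0.36 ± 0.05, adjusted p = 5.46e-05). Both were lower in all 5 fits. Over 18.7% of its exonic length Lamtor1 overlaps Lrrc51 on the other strand, and the strand setting of the counting is not given.

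Of the 4 membrane protein genes, 3 were called lower and none higher between HG-SIG and HG, compared with 26.8% and 25.7% of all genes. Scaled by library size alone, 1 was called lower (Cd63) and 1 higher (Mcoln1), compared with 13.7% and 45.8%. Cd63, which encodes a tetraspanin of late endosomes and lysosomes (chr10:128900989-128912822), had 132, 136 and 128 CPM in HG-SIG, compared with 189, 207 and 171 CPM in HG and 213, 212 and 207 CPM in NC. All HG-SIG libraries lay below all others, and the log2 fold change to HG was -0.52 ± 0.06 (adjusted p = 8.01e-06) and to NC -0.67 ± 0.06 (adjusted p = 4.36e-07). HG lay only just below NC (-0.16 ± 0.06, adjusted p = 0.0486), and this call was lost without any one library other than HG replicate 2, with adjusted p between 0.0582 and 0.131; without HG replicate 3 the value was -0.10.

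The 2 major glycoproteins of the lysosomal membrane changed less. Lamp1 had 627, 624 and 604 CPM in HG-SIG, 674, 717 and 669 CPM in HG and 660.3, 641 and 622 CPM in NC. Its HG libraries were the highest of the series, with log2 fold changes of -0.15 ± 0.04 (adjusted p = 0.00561) between HG-SIG and HG and 0.10 ± 0.04 (adjusted p = 0.0758) between HG and NC. Lamp2 averaged 218 ± 5.19 CPM in HG-SIG, 247 ± 8.19 CPM in HG and 257 ± 7.70 CPM in NC (-0.19 ± 0.04 between HG-SIG and HG, adjusted p = 0.0014). In both, the drop between HG-SIG and HG was about as large as the shift between scalings: by library size alone the values were 0.0094 for Lamp1 and -0.02 for Lamp2. Over 9.31% of its exonic length Lamp1 overlaps Grtp1 on the other strand, and the strand setting of the counting is not given. Mcoln1, the TRPML1 calcium channel gene, went the other way in value: 38.3, 35.8 and 44.4 CPM in HG-SIG, 34.9, 33.5 and 35.9 CPM in HG and 30.6, 33.8 and 35.4 CPM in NC. Its HG-SIG and HG libraries overlapped (0.19 ± 0.08, adjusted p = 0.0553). The gene was called higher under 7 of 18 alternatives. Among these were library size alone (0.35, adjusted p = 0.00196) and no filter on counts (adjusted p = 0.0252). The same held without HG-SIG replicate 2 (0.25, adjusted p = 0.0172) or HG replicate 3 (adjusted p = 0.0449). HG-SIG was above NC (0.25 ± 0.08, adjusted p = 0.0122), a call lost without HG-SIG replicate 3 (adjusted p = 0.0591) or NC replicate 1 (adjusted p = 0.0665).

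The 22 further genes of lysosomal membrane proteins and transporters, of which 21 could be tested, were split: 10 were called higher and 5 lower between HG-SIG and HG (14 higher and 2 lower with library size alone). The 3 with the lowest p-values included both directions. Cd68, a macrophage glycoprotein related to LAMP proteins, had 343, 326 and 315 CPM in HG-SIG, 554, 554 and 537 CPM in HG and 611, 604 and 599 CPM in NC (-0.74 ± 0.04 between HG-SIG and HG, adjusted p = 8.12e-09). Cd164, which encodes a sialomucin of endosomes and lysosomes, had 91.2, 91.3 and 90.6 CPM in HG-SIG, 56.2, 55.5 and 52.2 CPM in HG and 52.2, 48.0 and 48.1 CPM in NC (0.74 ± 0.04, adjusted p = 2.74e-08). Ostm1, the partner subunit of the chloride-proton exchanger ClC-7, averaged 60.1 ± 1.63 CPM in HG-SIG, 36.7 ± 1.80 CPM in HG and 35.9 ± 1.12 CPM in NC (0.71 ± 0.05, adjusted p = 6.93e-08). All 3 kept call and direction in the 5 fits.

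Of the 12 hydrolase genes, 3 were called higher, 4 lower and 5 not between HG-SIG and HG with TMM. With library size alone 6 were called higher (Glb1, Gaa and Asah1 added) and 2 lower (Hexa and Gla), and with limma 7 were called higher and none lower. Over all genes 25.7% were called higher and 26.8% lower with TMM, and 45.8% and 13.7% with library size alone. With limma the shares were 54.7% and 12.1% of the genes tested there. Smpd1, acid sphingomyelinase (chr7:105554360-105558389), had 27.3, 27.8 and 27.9 CPM in HG-SIG, compared with 19.4, 20.1 and 18.8 CPM in HG and 19.7, 20.1 and 20.8 CPM in NC. HG-SIG stood above both other groups, which overlapped. It rose by 0.51 ± 0.05 on the log2 scale relative to HG (adjusted p = 3.5e-06), and HG and NC differed by -0.05 ± 0.05 (adjusted p = 0.489). Asah1, acid ceramidase, which acts on the ceramide that sphingomyelinase releases, averaged 144 ± 3.63 CPM in HG-SIG, 140.2 ± 3.79 CPM in HG and 134 ± 3.69 CPM in NC (0.04 ± 0.04 between HG-SIG and HG, adjusted p = 0.349). The ratio of Smpd1 to Asah1 in TPM was 0.192, 0.191 and 0.201 in HG-SIG, 0.143, 0.141 and 0.138 in HG and 0.152, 0.154 and 0.153 in NC, and so separated HG-SIG from both other groups without any scaling between libraries; the pair was chosen after the values were seen.

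Man2b1, lysosomal alpha-mannosidase (chr8:85083270-85098282), was the only one of the 35 genes called higher in both steps. It had 113, 109 and 128 CPM in HG-SIG, 103, 103 and 107 CPM in HG and 84.0, 85.2 and 86.7 CPM in NC. The 3 groups did not overlap, with 0.29 ± 0.05 (adjusted p = 0.00111) between HG and NC and 0.16 ± 0.05 (adjusted p = 0.0198) between HG-SIG and HG. The call between HG-SIG and HG was lost without HG-SIG replicate 3, where the value fell to 0.09 (adjusted p = 0.0865). It was also lost without HG replicate 1 (0.15, adjusted p = 0.0599) or HG replicate 2 (0.15, adjusted p = 0.0626), where the value changed little. Neu1, the lysosomal sialidase, had 72.2, 69.8 and 73.7 CPM in HG-SIG, 64.9, 65.5 and 67.1 CPM in HG and 64.3, 67.3 and 64.2 CPM in NC (0.13 ± 0.04 between HG-SIG and HG, adjusted p = 0.0125, and 0.0529 without HG-SIG replicate 3). Without HG-SIG replicate 3, 3 of the 35 genes were called higher between HG-SIG and HG in place of 5. Of all genes, 2982 were then called higher, in place of 3417. Glb1, acid beta-galactosidase, had 53.1, 56.2 and 56.9 CPM in HG-SIG, 51.7, 56.1 and 54.3 CPM in HG and 46.6, 45.4 and 48.5 CPM in NC. It was higher in HG than in NC (0.21 ± 0.05, adjusted p = 0.00464) and overlapped between HG-SIG and HG (0.04 ± 0.04, adjusted p = 0.519).

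Gla, alpha-galactosidase A (chrX:134588149-134601125), went opposite to Man2b1 in both steps. It had 15.6, 19.1 and 17.4 CPM in HG-SIG, 22.2, 23.5 and 21.3 CPM in HG and 28.8, 26.0 and 24.9 CPM in NC. The groups did not overlap, with -0.36 ± 0.08 (adjusted p = 0.00223) between HG-SIG and HG and -0.25 ± 0.08 (adjusted p = 0.0286) between HG and NC. The HG and NC call was lost without HG replicate 1 or 3 or NC replicate 1 or 2, with adjusted p between 0.0508 and 0.133. Hexa, the alpha subunit of beta-hexosaminidase, averaged 205 ± 3.26 CPM in HG-SIG and 247 ± 4.8 CPM in HG (-0.27 ± 0.03, adjusted p = 2.34e-05); 12.8% of its exonic length overlaps Tmem202 on the other strand. Gusb, beta-glucuronidase, averaged 422 ± 5.60 CPM in HG-SIG and 483 ± 3.79 CPM in HG (-0.20 ± 0.03, adjusted p = 0.000383), and Ppt1, a thioesterase that removes fatty acids from proteins, 130.3 ± 1.14 CPM in HG-SIG and 144 ± 3.07 CPM in HG (-0.15 ± 0.03, adjusted p = 0.00243). Neither Hexa, Gusb nor Ppt1 was called between HG and NC. With library size alone the calls of Gusb and Ppt1 were lost, and with limma, which changes more than the scaling, those of all 4.

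Gaa, the acid alpha-glucosidase that digests glycogen, was nearly level over the groups at 48.4 ± 1.84 CPM in HG-SIG, 48.5 ± 2.68 CPM in HG and 48.1 ± 1.85 CPM in NC, and was called in no comparison with TMM; with library size alone its log2 fold change between HG-SIG and HG was 0.16. Naglu, which trims heparan sulfate, and Tpp1, a serine peptidase, were not called between HG-SIG and HG or between HG and NC with TMM. Tpp1 averaged 110.8 ± 3.24 CPM in HG-SIG, 120.0 ± 6.83 CPM in HG and 120.1 ± 5.52 CPM in NC (-0.12 between HG-SIG and HG, adjusted p = 0.0605). It was called lower with RLE size factors (adjusted p = 0.048), DESeq2 (adjusted p = 0.0486) and without HG replicate 2 (adjusted p = 0.0199). Naglu averaged 35.2 ± 1.09 CPM in HG-SIG and 37.9 ± 0.474 CPM in NC (-0.11, adjusted p = 0.0376), a call lost without HG-SIG replicate 1 or 2 or any NC replicate, with adjusted p between 0.0595 and 0.135. For Asah1 the call between HG-SIG and NC (0.11, adjusted p = 0.0224) was lost without HG-SIG replicate 1 or 2 or NC replicate 1 or 2, with adjusted p between 0.0556 and 0.0889.

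The 2 cofactor genes differed. Grn, whose protein progranulin is cut to granulins in lysosomes (chr11:102430315-102437048), had 312, 297 and 315 CPM in HG-SIG, compared with 385, 426 and 395 CPM in HG and 412, 408 and 426 CPM in NC. It fell by 0.38 ± 0.04 on the log2 scale relative to HG (adjusted p = 1.11e-05) and HG and NC overlapped. Psap, the precursor of the saposins that present sphingolipids to hydrolases, had 591, 568 and 606 CPM in HG-SIG, 620.4, 616 and 641 CPM in HG and 575, 565 and 593 CPM in NC. HG was highest; the value was 0.12 ± 0.04 (adjusted p = 0.0324) between HG and NC and -0.09 ± 0.04 (adjusted p = 0.0593) between HG-SIG and HG. Against HG it was called lower with RLE size factors (adjusted p = 0.0425), DESeq2 (adjusted p = 0.0199) and without HG-SIG replicate 3 (adjusted p = 0.0459). With limma it was called higher (0.11, adjusted p = 0.0323). The call between HG and NC was lost without HG-SIG replicate 1, HG replicate 1 or 3 or NC replicate 1 or 2, with adjusted p between 0.0518 and 0.101. Per length, Lamp1 (869 TPM in HG-SIG, 838 TPM in HG and 766 TPM in NC) and Psap (807 TPM in HG-SIG, 745 TPM in HG and 672 TPM in NC) were the most abundant of the 35.

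Of 24 further hydrolase and activator genes, 7 were called higher and 10 lower between HG-SIG and HG (10 higher and 7 lower with library size alone), and 6 higher and 3 lower between HG and NC. Acp5, tartrate-resistant acid phosphatase, had 5.33, 5.46 and 5.01 CPM in HG-SIG, 14.5, 16.3 and 13.7 CPM in HG and 13.4, 15.4 and 14.1 CPM in NC, a difference of -1.49 ± 0.09 between HG-SIG and HG (adjusted p = 3.13e-08). Lipa, lysosomal acid lipase, was higher in HG than in both others: 363, 365 and 380.3 CPM in HG-SIG, 502, 519 and 511 CPM in HG and 301, 309 and 317 CPM in NC. Among 7 genes that tag or carry hydrolases to the lysosome, 4 were called lower and none higher between HG-SIG and HG (2 and 2 with library size alone), the first being M6pr, a mannose 6-phosphate receptor, with 399, 401 and 389 CPM in HG-SIG, 519, 535 and 523 CPM in HG and 628, 627 and 634 CPM in NC (-0.41 ± 0.03 between HG-SIG and HG, adjusted p = 4.85e-07; -0.26 ± 0.03 between HG and NC, adjusted p = 5.34e-05). Gnptab, which encodes the enzyme that starts the mannose 6-phosphate tag, averaged 164 ± 0.654 CPM in HG-SIG and 201 ± 13.3 CPM in HG (-0.29 ± 0.05, adjusted p = 0.000448). Nagpa, which uncovers that tag, averaged 73.5 ± 1.26 CPM in HG-SIG and 84.1 ± 2.40 CPM in HG (-0.19 ± 0.04, adjusted p = 0.000995). Only M6pr kept its lower call in all 5 fits, so those of Gnptab and Nagpa depended on the fit. Under limma, M6pr alone of these 7 stayed lower between HG-SIG and HG, and 3 passed the test as higher. Of all genes tested there, 12.1% were called lower and 54.7% higher.

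**Figure D3:**
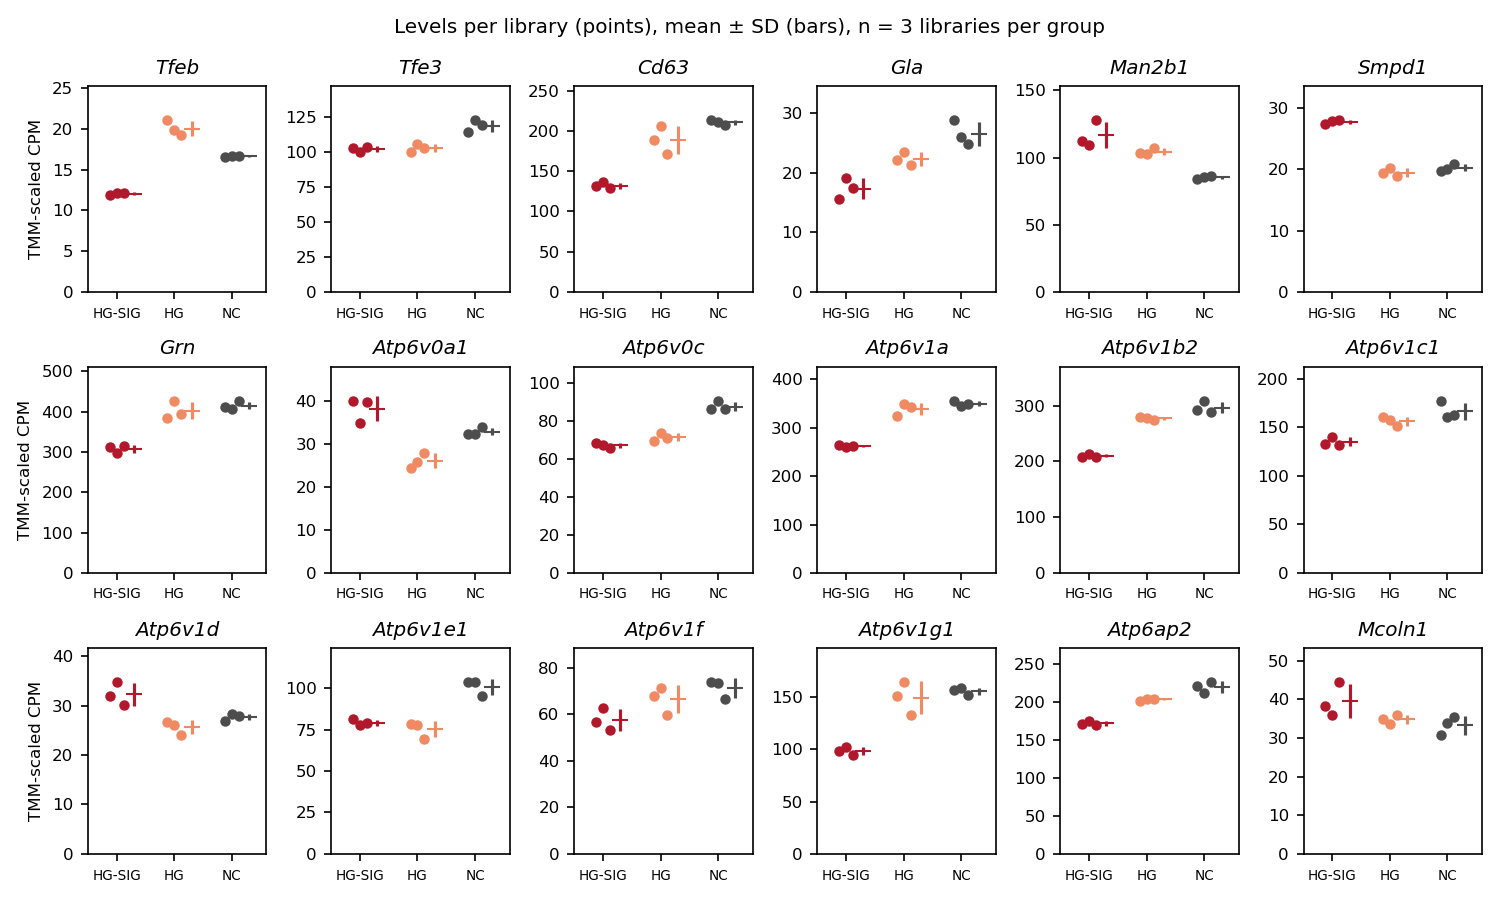
TMM-scaled CPM (y axis, from 0) of 18 of the 35 genes in each library (points) of HG-SIG, HG and NC (x axis), with the mean and 1 SD beside them, n = 3. Smpd1 is above 27 CPM in every HG-SIG library and below 21 CPM elsewhere, and Tfeb separates the 3 groups.

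In the catalytic V1 sector, 1 of 8 genes was called higher and 5 lower between HG-SIG and HG, compared with 25.7% and 26.8% of all genes. With library size alone the count was 3 higher, with Atp6v1e1 and Atp6v1h added, and 3 lower, without Atp6v1c1 and Atp6v1f. The shares of all genes were then 45.8% and 13.7%. The paired catalytic and nucleotide-binding subunits were lower by similar amounts. Atp6v1a (chr16:44085402-44139705), the A subunit that hydrolyses ATP, had 265, 261 and 263 CPM in HG-SIG, compared with 325, 350.0 and 342 CPM in HG and 355, 345 and 349 CPM in NC (-0.37 ± 0.04 between HG-SIG and HG, adjusted p = 3.49e-06). Atp6v1b2 (chr8:69088646-69113711), the B subunit of macrophages and most other cells, had 208, 213 and 208 CPM in HG-SIG, 280.1, 278 and 275 CPM in HG and 293, 308 and 289 CPM in NC (-0.40 ± 0.03, adjusted p = 1.15e-06). In both genes the HG-SIG libraries were below all others. The ratio of Atp6v1a to Atp6v1b2 in TPM stayed close to 1, at 1.11, 1.07 and 1.11 in HG-SIG, 1.02, 1.11 and 1.09 in HG and 1.06, 0.983 and 1.06 in NC, and overlapped between HG-SIG and HG.

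Atp6v1g1 (chr4:63544772-63550750), which forms the peripheral stalks with subunit E, had the largest difference of the 13 subunits among the 35 genes: 98.5, 102 and 94.6 CPM in HG-SIG, compared with 151, 164 and 133 CPM in HG and 157, 158 and 152 CPM in NC (-0.60 ± 0.06 between HG-SIG and HG, adjusted p = 4.74e-06). Its stalk partner Atp6v1e1 had 81.1, 77.6 and 78.7 CPM in HG-SIG, 78.3, 77.7 and 69.5 CPM in HG and 103, 103 and 95.4 CPM in NC, so that HG-SIG and HG overlapped (0.07 ± 0.05, adjusted p = 0.248) and HG was below NC (-0.42 ± 0.05, adjusted p = 4.06e-05). Atp6v1h, the regulatory H subunit, followed the same order, with 116 ± 7.18 CPM in HG-SIG, 112 ± 6.37 CPM in HG and 132 ± 1.23 CPM in NC (-0.23 ± 0.05 between HG and NC, adjusted p = 0.00399). For the central stalk, Atp6v1d had 32.0, 34.7 and 30.1 CPM in HG-SIG, 26.8, 26.2 and 24.1 CPM in HG and 27.0, 28.3 and 27.9 CPM in NC, higher in HG-SIG than in either (0.33 ± 0.06 relative to HG, adjusted p = 0.000639). Atp6v1f, its stalk partner, had 56.7, 62.6 and 53.3 CPM in HG-SIG, 68.0, 71.4 and 59.7 CPM in HG and 73.7, 73.5 and 66.5 CPM in NC. Its HG-SIG and HG libraries overlapped, and its call (-0.21 ± 0.07, adjusted p = 0.0266) was lost without HG-SIG replicate 1 or 3 or HG replicate 1 or 2, with adjusted p between 0.0756 and 0.117. Atp6v1c1, the C subunit that leaves when V1 and V0 come apart, averaged 135 ± 4.55 CPM in HG-SIG, 157 ± 4.67 CPM in HG and 167 ± 8.84 CPM in NC (-0.21 ± 0.04 between HG-SIG and HG, adjusted p = 0.00159), a call lost with library size alone (-0.05, adjusted p = 0.347).

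In the membrane sector V0, 1 of 5 genes was called higher and 1 lower between HG-SIG and HG, compared with 25.7% and 26.8% of all genes. With library size alone 2 were called higher and none lower, compared with 45.8% and 13.7%. Atp6v0a1 (chr11:101009452-101063719), one of the genes for the a subunit that directs the pump to its compartment, had 39.9, 34.8 and 39.7 CPM in HG-SIG, compared with 24.4, 25.9 and 27.8 CPM in HG and 32.3, 32.3 and 33.8 CPM in NC. The groups did not overlap, with HG lowest and HG-SIG highest, and it was the only one of the 35 called lower between HG and NC (-0.34 ± 0.07, adjusted p = 0.00174) and higher between HG-SIG and HG (0.55 ± 0.06, adjusted p = 1.43e-05). Both calls held in all 5 fits. Atp6v0c, the proteolipid of the rotating ring, had 68.5, 67.4 and 65.8 CPM in HG-SIG, 69.2, 73.6 and 71.2 CPM in HG and 86.2, 90.3 and 86.2 CPM in NC. It fell by 0.30 ± 0.04 between HG and NC (adjusted p = 7.85e-05), and HG-SIG and HG differed by -0.09 ± 0.04 (adjusted p = 0.0812). Atp6v0b, the other ring subunit, averaged 163 ± 6.18 CPM in HG-SIG, 171 ± 3.64 CPM in HG and 169.7 ± 8.88 CPM in NC, and Atp6v0d1, which joins the ring to the central stalk, 79.5 ± 5.01 CPM in HG-SIG, 76.8 ± 3.87 CPM in HG and 82.7 ± 1.57 CPM in NC. Neither passed the test in any of the 3 comparisons with TMM. Atp6v0e, a small membrane subunit, averaged 105 ± 4.16 CPM in HG-SIG and 122 ± 6.11 CPM in HG (-0.23 ± 0.05, adjusted p = 0.0019), a call lost with library size alone (-0.06, adjusted p = 0.25).

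The sectors can be compared within each library, where no scaling enters. The summed TPM of the 8 V1 genes over that of the 5 V0 genes was 1.61, 1.66 and 1.57 in HG-SIG, compared with 2.00, 2.04 and 1.91 in HG and 2.10, 1.98 and 1.99 in NC. The HG-SIG libraries lay below all others, while HG and NC overlapped. Atp6v1g1 weighs most in that sum, with 326 TPM in HG-SIG, 429 TPM in HG and 438 TPM in NC. Without it the ratio was 1.12, 1.16 and 1.10 in HG-SIG, 1.28, 1.28 and 1.26 in HG and 1.37, 1.28 and 1.29 in NC. HG-SIG was again lowest, and HG (at most 1.277) no longer overlapped NC (at least 1.283). The ratio was chosen after the values were seen and has no test.

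**Figure D4:**
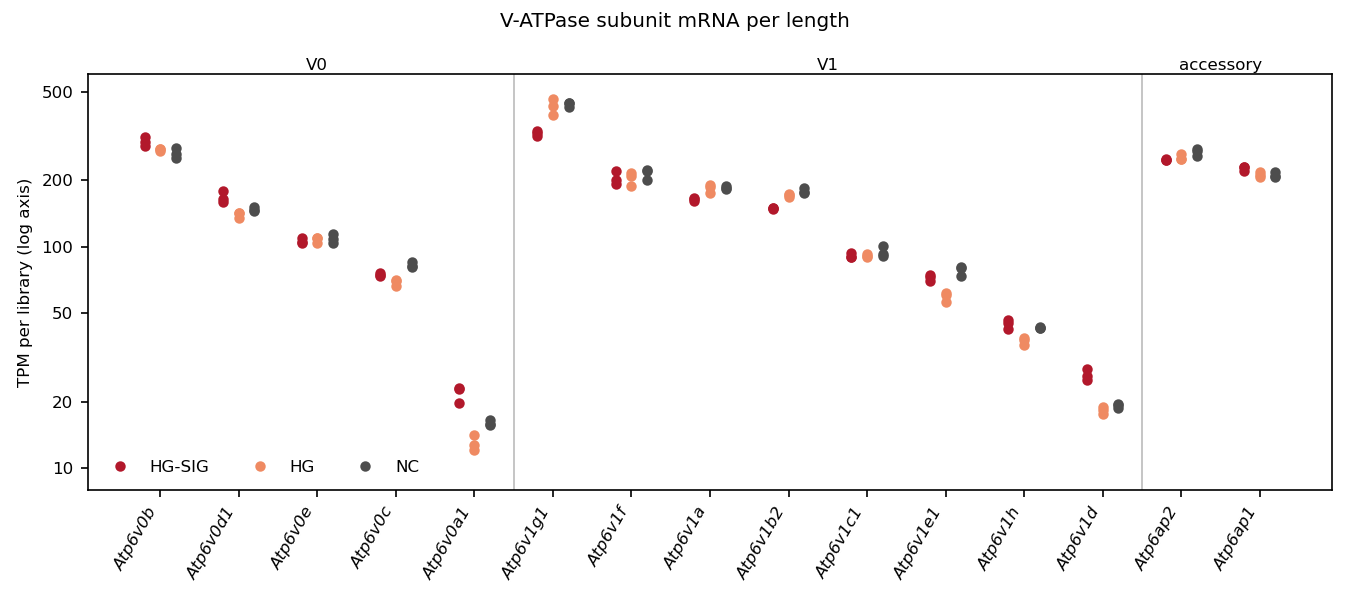
TPM (y axis, log scale) of the 5 V0, 8 V1 and 2 accessory genes of the V-ATPase (x axis, by falling TPM within each sector) in each library (points) of HG-SIG, HG and NC. Atp6v1g1 is the most abundant (326 TPM in HG-SIG, 429 TPM in HG and 438 TPM in NC) and Atp6v0a1 the least (21.9 TPM in HG-SIG, 13.0 TPM in HG and 16.0 TPM in NC).

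Both accessory genes were called lower between HG-SIG and HG with TMM and neither with library size alone. Of all genes, 26.8% were called lower with TMM and 13.7% with library size alone. Atp6ap2, the prorenin receptor, had 171, 175 and 169 CPM in HG-SIG, 202, 204 and 204 CPM in HG and 221, 211 and 226 CPM in NC, without overlap (-0.24 ± 0.04 between HG-SIG and HG, adjusted p = 8.84e-05; -0.11 ± 0.03 between HG and NC, adjusted p = 0.0294). The call between HG and NC was lost without HG replicate 1 or 2 or NC replicate 1 or 3, with adjusted p between 0.0679 and 0.118. Atp6ap1, which helps the pump to assemble, averaged 182 ± 4.76 CPM in HG-SIG and 196 ± 1.34 CPM in HG (-0.11 ± 0.04, adjusted p = 0.0227), a call lost without HG-SIG replicate 1 or 3 or HG replicate 1, with adjusted p between 0.0526 and 0.102.

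Several subunits have paralogues outside the 35. Of 13 tested genes for other isoforms and for assembly, 4 were called higher and 4 lower between HG-SIG and HG (6 higher and 3 lower with library size alone). Atp6v0d2, the d isoform associated with osteoclasts, had 3.94, 3.92 and 2.77 CPM in HG-SIG, 10.1, 11.8 and 11.0 CPM in HG and 14.9, 14.4 and 14.9 CPM in NC (-1.63 ± 0.12 between HG-SIG and HG, adjusted p = 1.78e-07). It took 2.85% ± 0.409 of the d subunit TPM in HG-SIG, 8.62% ± 0.702 in HG and 10.5% ± 0.259 in NC, and Atp6v0d1 the rest. Of the a subunit TPM, Tcirg1, the isoform a3 that resorbing osteoclasts require, took 56.8% ± 2.52 in HG-SIG, 65.7% ± 2.41 in HG and 67.7% ± 0.957 in NC. Atp6v0a1 took 11.5% ± 0.947 of it in HG-SIG, 7.58% ± 0.487 in HG and 8.25% ± 0.182 in NC, and Atp6v0a2 31.7% ± 1.85 in HG-SIG, 26.7% ± 1.97 in HG and 24.0% ± 0.782 in NC. The Tcirg1 share was lower in every HG-SIG library than in any HG or NC library. By level, Tcirg1 averaged 133 ± 18.2 CPM in HG-SIG, 159 ± 21.3 CPM in HG and 189 ± 11.9 CPM in NC, with overlapping libraries between HG-SIG and HG (-0.25 ± 0.10, adjusted p = 0.046) and a call that was not kept in all 5 fits, and Atp6v0a2 averaged 108 ± 3.29 CPM in HG-SIG, 94.0 ± 2.85 CPM in HG and 98.1 ± 1.75 CPM in NC (0.21 ± 0.04 between HG-SIG and HG, adjusted p = 0.000607). Atp6v0e2, a paralogue of Atp6v0e, was higher in HG (36.3 ± 3.14 CPM) than in NC (27.6 ± 0.861 CPM; 0.40 ± 0.06, adjusted p = 0.000407), and Atp6v1g2 stayed near 1 CPM, with 1.02 ± 0.0866 CPM in HG-SIG, 1.26 ± 0.157 CPM in HG and 1.66 ± 0.219 CPM in NC. Wdr7, which encodes a partner of the rabconnectin complex that acts on V-ATPase assembly, was higher in HG-SIG (34.5 ± 0.805 CPM) than in HG (25.1 ± 1.06 CPM; 0.46 ± 0.05, adjusted p = 6.17e-06), and Ccdc115, an assembly factor, was lower (75.2 ± 1.52 CPM in HG-SIG and 92.2 ± 3.14 CPM in HG; -0.30 ± 0.04, adjusted p = 3.12e-05).

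Across both steps, 13 of the 35 genes were called lower between HG-SIG and HG and not called between HG and NC, and 7 were called in neither. Cd63, Gla and Atp6ap2 were called lower in both, Man2b1 higher in both, and Tfeb and Atp6v0a1 were called in opposite directions. Of all 13311 genes tested, 3572 were called lower between HG-SIG and HG and 9384 were not called between HG and NC. How many of all genes showed each pair of calls was not counted, so these patterns have no background to be read against. The 10 genes with CACGTG in the promoter window had 0 called higher, 4 lower and 6 not called between HG-SIG and HG, with a median log2 fold change of -0.08. The 20 with a window but no core had 5 higher, 10 lower and 5 not called, with a median of -0.11. Over all genes 25.7% were called higher and 26.8% lower. The counts with library size alone were 4 higher and 2 lower of the 10, and 7 higher and 4 lower of the 20, compared with 45.8% and 13.7% of all genes. With limma they were 6 higher and 1 lower of the 10, and 10 higher and 3 lower of the 20. The shares of all genes tested there were 54.7% and 12.1%. Between HG and NC, 1 of the 10 was called higher and 1 lower (Glb1 and Gla), and 3 of the 20 higher and 6 lower. Of all genes, 14.3% were called higher and 15.2% lower between HG and NC. Of the genes whose promoters are printed above, Glb1 and Gla differed in direction between HG and NC. Lamp1, with 4 copies, and Atp6v0b, with 2, were not called there. The printed genes were picked partly for such differences, so this contrast is no result about the core. The spread within groups was small: the median coefficient of variation of the 35 genes over the 3 libraries was 2.93% in HG-SIG, 3.50% in HG and 2.75% in NC, and the largest was 11.1% for Mcoln1 in HG-SIG.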

How the data were processed

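RNA of 9 RAW264.7 libraries (HG-SIG, HG and NC, 3 each) was analysed from the deposited table of gene counts. The tools were Bowtie2 2.3.5 and RSEM on mm10, per the submitters' processing notes; for the annotation release and the strand setting, a value is not given in the sources used here. Every count was a whole number and was tested as deposited by the authors; any rounding of RSEM estimates before deposit is not stated. Features without an Ensembl identifier (1996 of 20627) held 5.85% to 6.21% of each library total and stayed in the fit. Groups and replicate numbers came from the sample titles, glucose and time from the design text. The numbers were not used to pair libraries: deviations of same-numbered libraries from their group means correlated by less than 0.1 in all 9 pairs.

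Counts were filtered with filterByExpr, normalised by TMM and modelled in edgeR 4.0.16 (R 4.3.3) as 1 model of 3 group means. Each of 3 comparisons was tested with the quasi-likelihood F-test and adjusted by Benjamini-Hochberg over 13311 genes; SEs come from the fold change and F. TPM used exonic lengths from GENCODE M21 (GRCm38), which also gave positions and overlaps. Promoters came from RefSeq (GRCm38.p6). Members and related lists were chosen with earlier results of these data known. Named from the lists of related genes were the 3 with the lowest p between HG-SIG and HG, of which 1 gene is not reported here; other isoforms of the V-ATPase and of the TFEB family are given for their shares, and other related genes were not all described. The alternatives were library size alone, RLE size factors, DESeq2 1.42.0, limma 3.58.1 on log2(TPM + 1), no filter, a filter of 10 counts in every library of a group, only the 2 groups compared, no unannotated loci, a replicate block, and each library left out. The 5 fits compared are TMM and the first 4 of these; DESeq2 and limma also change the test, and limma the genes tested. The fitting script was tested on simulated counts.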

Additional observations from a re-analysis of the deposited data

How the results depend on the processing

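Library size scaling and limma, which also changes the test, the genes tested and the unit, moved most. With library size alone, 13 members were called higher and 8 lower between HG-SIG and HG (6093 and 1826 of all genes), and 13 higher and 11 lower between HG-SIG and NC (6786 and 2120 of all genes). With limma on log2(TPM + 1), 18 were called higher and 6 lower between HG-SIG and HG (6624 and 1467 of all genes), and 15 higher and 10 lower between HG-SIG and NC (7095 and 1757 of all genes). The sign turned, with a call in at least one of the 2 fits, for the following genes. Between HG-SIG and HG, library size alone gave log2 fold changes of 0.15 for Tfe3, 0.0094 for Lamp1, 0.16 for Gaa, 0.015 for Ppt1 and 0.055 for Atp6ap1. Between HG-SIG and NC it gave 0.14 for Lamp1, 0.027 for Gusb, 0.083 for Naglu, 0.0042 for Ppt1, 0.13 for Atp6v0b, 0.13 for Atp6v0d1, 0.012 for Atp6v1h and 0.062 for Atp6ap1. Between HG-SIG and HG, limma gave 0.19 for Tfe3, 0.053 for Lamp1, 0.019 for Lamp2, 0.20 for Gaa, 0.0094 for Gusb, 0.12 for Naglu, 0.058 for Ppt1, 0.11 for Psap, 0.13 for Atp6v0b, 0.12 for Atp6v0c and 0.10 for Atp6ap1. Between HG-SIG and NC it gave 0.020 for Tfe3, 0.18 for Lamp1, 0.00031 for Hexa, 0.074 for Gusb, 0.13 for Naglu, 0.050 for Ppt1, 0.18 for Atp6v0b, 0.18 for Atp6v0d1, 0.056 for Atp6v1h and 0.11 for Atp6ap1. Which fit is nearer to RNA per cell was not tested. Signs also turned for genes called in neither fit: Naglu, Tpp1, Psap, Atp6v0b and Atp6v0c between HG-SIG and HG and Tpp1 between HG-SIG and NC with library size alone, Tpp1 in both with limma, Naglu, Tpp1 and Atp6ap1 between HG and NC with each, and Gaa between HG-SIG and NC with RLE size factors and DESeq2. Leaving out 1 library in turn gave 3 to 6 members called higher between HG-SIG and HG and 5 to 7 called lower between HG and NC. Over all genes these counts were 2962 to 3557 (3417 with all libraries) and 1657 to 2129 (2028 with all libraries). The replicate block, which treats same-numbered libraries as paired, gave 25 called members in place of 22 between HG-SIG and HG. It gave 15 in place of 12 between HG and NC and 30 in place of 29 between HG-SIG and NC. Over all genes the calls rose in the same order from 6989 to 7563, from 3927 to 4663 and from 7801 to 8282. Whether the numbers pair libraries was not tested beyond the correlations given above. Depth did not limit the members, whose lowest count in a library was 375.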
